A study of Mus musculus with 18 samples.

Results

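The globins are the protein chains of haemoglobin, and their messengers are among the most abundant in blood cells. Probe sets annotated to 7 mouse globin genes were collected from both array types of a study of Nkx2-5: the embryonic genes Hba-x, Hbb-y and Hbb-bh1, and the adult genes Hba-a1, Hba-a2, Hbb-b1 and Hbb-b2. Probe sets in which several of these symbols stand together were kept. Of the 7 symbols 6 were found, of 6581 gene symbols on the arrays in all, and no probe set carried Hbb-b1. They were read by 11 probe sets, 5 on one array type (type a) and 6 on the other (type b), among 13057 probe sets.

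Embryos were homozygous mutant, heterozygous mutant or wild type for Nkx2-5, also named Csx, a homeodomain regulator of heart development, and were taken at embryonic day 9.5. Neither the mutant allele nor the mouse strain is stated in the sources used here. Total RNA came from the middle one of 3 parts of the body, so blood was measured with all other tissue of that part, and in such bulk samples fewer blood cells and less globin RNA per cell cannot be told apart. Each genotype had 3 arrays of each of the 2 types, numbered in the labels 2, 6 and 8 (type a) or 9 (type b) for homozygous mutants, 3, 4 and 8 for heterozygotes and 1, 5 and 7 for wild type. Nothing in the labels tells single embryos from pools, and the p-values therefore cover the spread among these samples alone, part of which may be technical.

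Alpha-like chains pair with beta-like chains, each holding a heme group. In the mouse the primitive red cells made in the yolk sac carry embryonic chains, and the definitive red cells that arise later in the fetal liver carry adult chains only. Primitive cells enter the circulation around this stage and take up adult alpha chains early, while the switch of the beta chains comes later. Within each cluster the genes are transcribed in an order that follows development, and factors such as GATA1, KLF1 and NF-Y are known to act at their promoters.

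The alpha-like genes lie side by side on chromosome 11 of the GRCm38.p6 assembly: Hba-x at chr11:32276600-32278116, Hba-a1 at chr11:32283672-32284486 and Hba-a2 at chr11:32296492-32297310. Hbb-bh1 lies at chr7:103841638-103843162 and Hbb-y at chr7:103851754-103853207. The gene table places Hbb-b1 and Hbb-b2 on an alternate locus, for which no coordinates are printed. The RefSeq promoter table used here held 4 of the 7 members. The 250 bases before the start of 1 embryonic alpha-like gene, 1 adult alpha gene and 1 embryonic beta-like gene are shown because the measurements below set these classes against each other. Capitals mark 4 motifs, searched on both strands: GATAA for GATA factors, CACCC for KLF factors, CCAAT for the CCAAT box and TATAA for the TATA box.

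Hba-x: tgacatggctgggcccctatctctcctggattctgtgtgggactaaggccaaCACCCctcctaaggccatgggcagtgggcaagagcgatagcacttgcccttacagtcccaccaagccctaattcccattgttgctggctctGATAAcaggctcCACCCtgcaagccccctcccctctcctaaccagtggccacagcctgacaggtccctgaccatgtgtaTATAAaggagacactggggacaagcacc

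Hba-a1: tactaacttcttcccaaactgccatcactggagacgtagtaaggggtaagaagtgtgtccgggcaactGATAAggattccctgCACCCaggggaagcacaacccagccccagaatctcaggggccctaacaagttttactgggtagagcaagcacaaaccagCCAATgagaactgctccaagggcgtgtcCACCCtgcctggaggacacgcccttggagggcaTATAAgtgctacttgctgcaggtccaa

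Hbb-y: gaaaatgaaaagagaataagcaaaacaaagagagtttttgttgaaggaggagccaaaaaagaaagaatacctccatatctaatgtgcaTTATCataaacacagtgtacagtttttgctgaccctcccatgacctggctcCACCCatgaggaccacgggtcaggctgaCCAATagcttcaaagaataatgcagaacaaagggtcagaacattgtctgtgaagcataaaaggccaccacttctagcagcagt

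These stretches are chr11:32276350-32276599 on the plus strand, chr11:32283422-32283671 on the plus strand and chr7:103853208-103853457 on the minus strand, each read 5′ to 3′ towards the gene. The Hba-a2 stretch, chr11:32296242-32296491, is the Hba-a1 stretch moved by 3 bases, with 247 of 247 aligned bases identical. Hba-a1 and Hba-a2 held all 4 motifs, as did 0.968% of the 32851 mouse promoters of this length. Hba-x held no CCAAT, and Hbb-y held no TATAA. Singly, GATAA was found in 22.6% of the promoters, CACCC in 52.0%, CCAAT in 33.8% and TATAA in 22.8%. A match of letters is a description and not a site of binding. On the arrays, both type a adult alpha probe sets carry both symbols, while those of type b carry Hba-a1 alone. The transcript sequences that the probe sets read were not compared.

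Homozygous mutant arrays 8a and 9b stood apart from all others of their type, and results are therefore given with and without them. The ratio of the 3′ to the 5′ actin probe sets, which rises when RNA is shortened, was 2.50 on 8a against 0.967 to 1.41 on the other type a arrays, and 2.28 on 9b against 0.849 to 1.40. The BioB spike-in read 3950 on 8a against 966 to 1539, and 4531 on 9b against 1498 to 2320. The 99.9th percentile of intensity, called the top of the array here, was 109023 on 8a against 42001 to 57381, and 117692 on 9b against 45708 to 104951. The share of probe sets above the floor was 54.5% on 8a against 54.8% to 57.8%, and 38.6% on 9b against 39.6% to 44.0%. The labels do not say whether 8a and 9b held the same RNA. Nkx2-5 itself had no annotated probe set, and the genotypes were therefore not checked through the targeted gene.

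Intensities are the deposited values, linear and background subtracted. The level of one probe set cannot be set against that of another, so only changes between arrays are read. Probe sets whose name ends in _f_at are those that the maker matched to a family of sequences, and whether they tell neighbouring globin genes apart was not tested. A floor of 2 noise SDs lay at 375.1 for type a and at 523.1 for type b. A probe set was tested when above it on at least 3 of 9 arrays. By this filter 10 of the 11 globin probe sets were tested, 5 embryonic and 5 adult, among 6935 tested in all.

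No globin passed the test between homozygous mutant and wild type embryos, an adjusted p under 0.05 by limma. Of the 10 tested probe sets 0 were called, where 0.692% of all tested probe sets were, and 1, that of Hbb-b2, had an unadjusted p under 0.05, as did 777 of the 6935. In 0 of the 10 were the 2 genotypes' values free of overlap, against 15.4% of all tested. The median log2 fold change of the 10 was 0.15, against -0.02 over all tested probe sets. What varied was the balance of adult to embryonic signal between single arrays. Embryonic signal relative to adult was lowest on 8a and 9b, and it also varied among the other arrays of both types.

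Hba-x, the zeta-like chain of the embryonic alpha cluster, was read by probe set m26898_f_at on type a. Its intensity was 51100.1, 35813 and 50369 in homozygous mutants 2, 6 and 8a, 48702, 44215 and 46843 in heterozygotes 3, 4 and 8, and 52485.0, 49358 and 37151 in wild type 1, 5 and 7. The genotypes overlapped fully, and array 8a lay within the range of the others. The log2 fold change of homozygous mutant over wild type was -0.02 (95% confidence interval -0.47 to 0.42, adjusted p = 0.981, limma), and without 8a and 9b it was -0.10. Scaled to the spike-ins it was -0.70, the lowest of the alternatives of the processing, whose lowest adjusted p was 0.204 (limma).

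Hbb-y, the epsilon-like embryonic beta chain, was read by m26897_f_at on type a. Values were 43061, 38391 and 63173 in homozygous mutants 2, 6 and 8a, 39024, 35927 and 39451 in heterozygotes, and 39213, 40120.1 and 31758 in wild type. The values of 2 and 6 lay within or next to the other genotypes, and 8a lay above all of them. The log2 fold change over wild type was 0.35 (95% confidence interval -0.10 to 0.81, adjusted p = 0.563, limma), and 0.14 without 8a.

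On type b the bright Hbb-y probe set read 42125, 51616 and 78359 in homozygous mutants 2, 6 and 9b, 58610.4, 47964 and 54919 in heterozygotes, and 47435, 56434 and 45675 in wild type. Again only the odd array lay outside the range of the others on the high side. The log2 fold change over wild type was 0.16 (95% confidence interval -0.42 to 0.74, adjusted p = 0.890, limma), and -0.09 without 9b. A further Hbb-y probe set of type b gave -79.4 to 46.5, was under the floor on all 9 arrays and was not tested.

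Hbb-bh1, the other embryonic beta-like chain and the first to be made in the yolk sac, was read on both types. The type a probe set m26894_rc_at gave 2714, 1030.0 and 1281 in homozygous mutants 2, 6 and 8a, 1514, 2012 and 854 in heterozygotes 3, 4 and 8, and 2212, 1815 and 662 in wild type 1, 5 and 7. The genotypes overlapped widely, and the log2 fold change over wild type was 0.14 (95% confidence interval -0.95 to 1.23, adjusted p = 0.945, limma). The type b probe set gave 16605, 16061 and 11598 in homozygous mutants 2, 6 and 9b, 15889, 11198 and 11928 in heterozygotes, and 20096, 14065 and 9595 in wild type. Here 9b was the lowest homozygous mutant, unlike for Hbb-y, and the log2 fold change was 0.06 (95% confidence interval -0.53 to 0.66, adjusted p = 0.955, limma).

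Both Hbb-bh1 probe sets were lowest in wild type 7. On type a the highest values were those of homozygous mutant 2, heterozygote 4 and wild type 1, which are also the replicates with high Afp, a gene of liver bud and visceral endoderm. Afp read 1775, 1257 and 1406 in homozygous mutant 2, heterozygote 4 and wild type 1, and 90.6 to 233.8 on the other type a arrays. Of that marker list 6 probe sets lay on type a and 3 of them passed the filter. The summed intensity of all 6, with values below 0 taken as 0, was 1689 to 5282 in homozygous mutants. It was 1461 to 4892 in heterozygotes and 1156 to 3919 in wild type. With the high-Afp replicates as a block, the Hbb-bh1 log2 fold change over wild type was 0.14 with a standard error of 0.37, against 0.50 without the block. On type b wild type 1 (20096) and homozygous mutant 2 (16605) were again highest, but heterozygote 4 held the second lowest Hbb-bh1 value. The pattern was thus shared by both probe sets only in part. The part of such tissue in the Hbb-bh1 values was not tested beyond this block.

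The adult alpha genes Hba-a1 and Hba-a2 encode the same kind of chain and were read together by 2 type a probe sets. C77409_rc_f_at gave 40210.0, 33323 and 91875 in homozygous mutants 2, 6 and 8a, 37752, 32996 and 31412 in heterozygotes, and 40858, 37907 and 29538 in wild type. C79775_rc_f_at gave 40105, 43762 and 111580.1 in homozygous mutants, 41000.0, 36741 and 37980 in heterozygotes, and 38874, 41734 and 33710 in wild type. Homozygous mutant 2 lay among the other genotypes in both, and 6 lay among them in C77409_rc_f_at and just above them in C79775_rc_f_at. Array 8a stood 2.25-fold and 2.55-fold above the next array.

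The log2 fold changes over wild type were 0.48 for C77409_rc_f_at (95% confidence interval -0.22 to 1.17, adjusted p = 0.635, limma) and 0.61 for C79775_rc_f_at (95% confidence interval -0.09 to 1.32, adjusted p = 0.515, limma). Without 8a they were 0.03 and 0.14. After quantile normalization they were -0.03 and 0.05, and scaled to the spike-ins -0.20 and -0.06, so the sign of neither probe set was stable.

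On type b, Hba-a1 was read by v00714_f_at, at 33840.4, 59420.1 and 114731 in homozygous mutants 2, 6 and 9b, 76149.8, 78606 and 60827 in heterozygotes, and 44685, 86139 and 57389 in wild type. The homozygous mutants held both the lowest and the highest of the 9 values. The log2 fold change over wild type was 0.02 (95% confidence interval -0.88 to 0.92, adjusted p = 0.993, limma), and -0.43 without 9b. The second Hba-a1 probe set of type b lay near the floor, at 389, 518 and 712 in homozygous mutants, 656, 610 and 740.0 in heterozygotes, and 360.0, 356 and 627 in wild type, and exceeded it on 5 of 9 arrays, 3 of them heterozygous. Its log2 fold change over wild type was 0.06 (adjusted p = 0.932, limma), which understates any change so close to the floor.

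Hbb-b2, an adult beta chain known as beta minor, was the member with the largest range, 11.3-fold over 9 arrays, on probe set v00722_f_at of type b. It read 5362, 7384 and 37750.4 in homozygous mutants 2, 6 and 9b, 3568, 5079 and 4065 in heterozygotes, and 4121, 3347 and 6952 in wild type. All 3 homozygous mutants lay above the heterozygotes, but homozygous mutant 2 lay below wild type 7. The log2 fold change over wild type was 1.32 (SE 0.58, 95% confidence interval 0.04 to 2.60, unadjusted p = 0.044, adjusted p = 0.432, limma). Without 8a and 9b it was 0.46 (95% confidence interval -0.22 to 1.14, adjusted p = 0.579, limma), so 1 array carried most of it. That array also had the raised actin ratio and spike-in signal, whose part in the value was not tested.

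**Figure D1:**
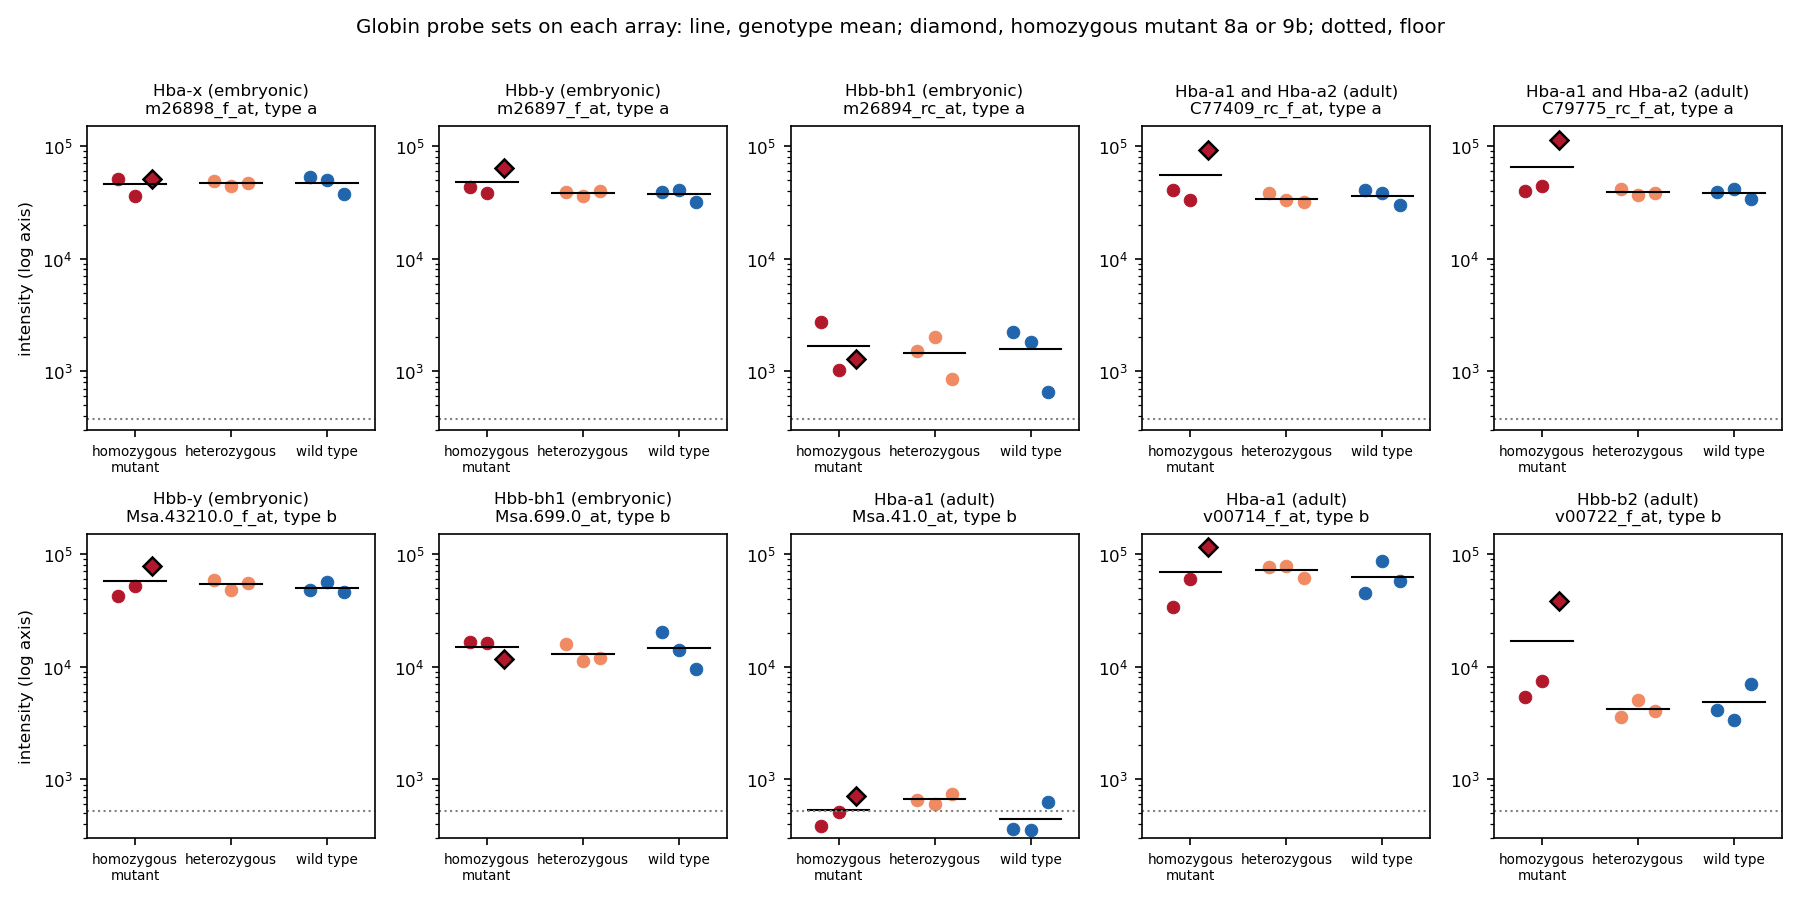
Intensity of each tested globin probe set on every array (log axis), type a in the upper row and type b in the lower, with homozygous mutant, heterozygous and wild type arrays from left to right, a line at the genotype mean, a dotted line at the floor and diamonds for arrays 8a and 9b. The adult alpha probe sets of type a reach 91875 and 111580.1 on 8a and Hbb-b2 reaches 37750.4 on 9b, while Hba-x and Hbb-bh1 do not stand out on those arrays.

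The excess of Hbb-b2 on 9b was set against all other probe sets as a description. Its value there was 5.11-fold the next highest array, the largest such ratio of the 2966 probe sets tested on type b. The second, 4.87-fold, was X14061_f_at, which has no symbol and is not named here, at 8707, 14772 and 71887 in homozygous mutants 2, 6 and 9b, 6082, 8524 and 4591 in heterozygotes, and 7973, 6674 and 10153.0 in wild type. It followed Hbb-b2 in having its 2 highest values in homozygous mutants 9b and 6. Next came Myl3 (2.68-fold), a myosin light chain, and Cox6a2 (2.52-fold), a muscle subunit of cytochrome oxidase. On 8a the adult alpha probe sets ranked 5 and 10 of 3969, behind Rpl41 at 3.41-fold, Apoe at 2.87-fold, Elob at 2.74-fold and Cox6a2 at 2.57-fold. Embryonic globins were less raised: Hbb-y was 1.47-fold the next array on 8a and 1.34-fold on 9b, Hba-x 0.960-fold on 8a, and Hbb-bh1 0.472-fold on 8a and 0.577-fold on 9b.

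No globin passed the test between heterozygous and wild type embryos. Of the 10 probe sets 0 were called by limma, against 0% of all tested, 0 had an unadjusted p under 0.05, against 118 of all tested, and 0 were free of overlap, against 6.37% of all tested. Log2 fold changes ran from -0.13 for Hbb-b2 to 0.26 for the dim Hba-a1 probe set of type b, with a median of 0.02 beside 0.03 over all tested probe sets. The narrowest interval among the bright probe sets was that of Hba-x, -0.42 to 0.47, and with 3 arrays per genotype a difference inside that range was not detectable.

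Homozygous mutants set against heterozygotes gave 0 called globin probe sets by limma, where 1.15% of all tested were called. Again Hbb-b2 was the 1 globin with an unadjusted p under 0.05, as had 1090 of all tested probe sets, and the 1 of 10 whose values did not overlap, against 22.6% of all tested. Its log2 fold change was 1.45 (95% confidence interval 0.17 to 2.73, unadjusted p = 0.030, adjusted p = 0.261, limma), and 0.59 without 8a and 9b (adjusted p = 0.386). The same homozygous mutant arrays enter this and the comparison with wild type, so the values are not independent. The other 9 ran from -0.22 for v00714_f_at (Hba-a1) to 0.59 for C79775_rc_f_at (both adult alpha genes).

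**Figure D2:**
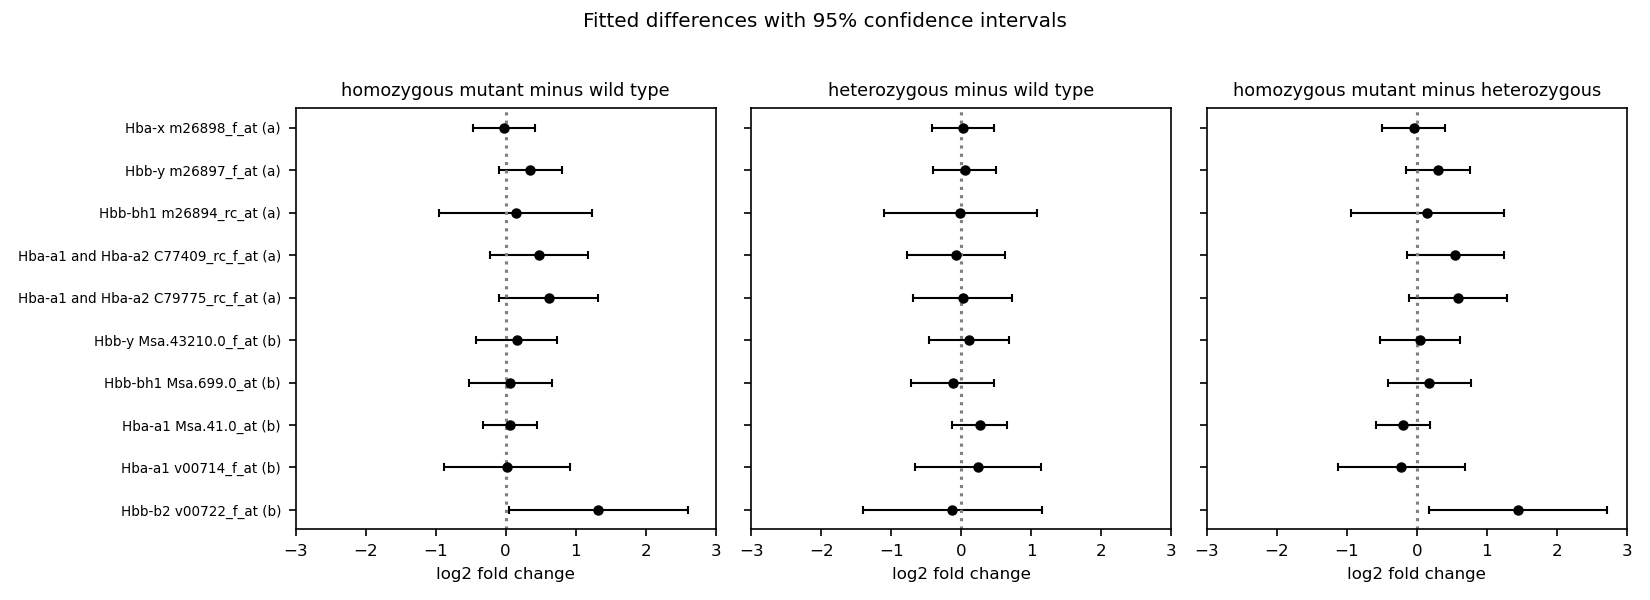
Log2 fold change of each tested globin probe set with its 95% confidence interval from limma, for homozygous mutant minus wild type, heterozygous minus wild type and homozygous mutant minus heterozygous (left to right), with the array type in brackets. Only the Hbb-b2 intervals of 0.04 to 2.60 and 0.17 to 2.73 leave out 0, and neither passed after adjustment over all probe sets.

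The balance of embryonic to adult signal was formed within each array as the log2 ratio of an embryonic to an adult probe set. It has no test, and its absolute value is not a ratio of messengers, since the probe sets differ. For the alpha-like genes, Hba-x over the mean of both adult alpha probe sets on type a was 0.35, -0.09 and -1.01 in homozygous mutants 2, 6 and 8a, 0.31, 0.34 and 0.44 in heterozygotes, and 0.40, 0.31 and 0.24 in wild type. The heterozygous and wild type arrays thus lay between 0.24 and 0.44, homozygous mutant 2 lay among them, 6 lay below, and 8a lay 0.91 below the next lowest array. Genotype means were -0.25 ± 0.69, 0.36 ± 0.07 and 0.31 ± 0.08 (SD, n = 3 each) in homozygous mutant, heterozygous and wild type embryos. The homozygous mutant minus wild type difference of -0.57 was -0.19 without 8a.

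For the beta-like genes, Hbb-y over Hbb-b2 on type b was 2.97, 2.81 and 1.05 in homozygous mutants 2, 6 and 9b, 4.04, 3.24 and 3.76 in heterozygotes, and 3.52, 4.08 and 2.72 in wild type. All homozygous mutants lay below all heterozygotes, where 22.6% of all tested probe sets were free of overlap between these genotypes. Hbb-b2 alone was also free of overlap there and Hbb-y was not, so this is no separate result. Wild type 7 lay below homozygous mutants 2 and 6. Means were 2.28 ± 1.06 in homozygous mutants, 3.68 ± 0.40 in heterozygotes and 3.44 ± 0.68 in wild type (SD, n = 3 each). The difference from wild type was -1.16, and -0.55 without 9b. The pooled SD of 0.77 includes 9b, so it is no measure for the difference without that array.

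Hbb-bh1 over Hbb-b2 was 1.63, 1.12 and -1.70 in homozygous mutants 2, 6 and 9b, 2.15, 1.14 and 1.55 in heterozygotes, and 2.29, 2.07 and 0.46 in wild type. The ratio was lowest on 9b and next lowest in wild type 7. The difference of homozygous mutant from wild type was -1.26, and -0.23 without 9b. Over all embryonic and all adult probe sets the difference was -0.39 for type a and -0.36 for type b. Without 8a and 9b it was 0.02 and 0.09. Heterozygotes differed from wild type by 0.05 (Hba-x over adult alpha), 0.24 (Hbb-y over Hbb-b2) and 0.01 (Hbb-bh1 over Hbb-b2). Each was below the pooled SD of 0.40, 0.77 and 1.22, which includes 8a or 9b.

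**Figure D3:**
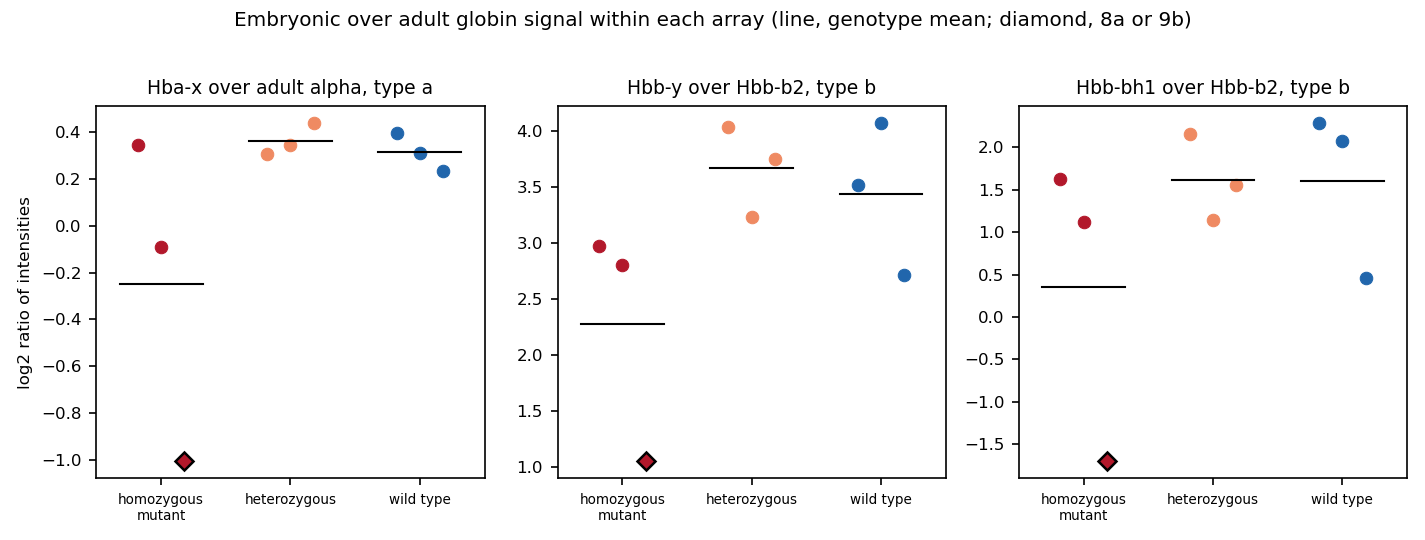
Log2 ratio of embryonic to adult globin intensity on each array for 3 pairs of probe sets (each panel has its own axis), with homozygous mutant, heterozygous and wild type arrays from left to right, lines at the genotype means and diamonds for 8a (left panel) and 9b (middle and right). The diamonds lie at -1.01, 1.05 and -1.70, below every other array of their panel.

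The brightest globins lay at the top of the arrays' scale, which bears on how their changes can be read. Of the 54 values of the 6 brightest globin probe sets, 18 (33.3%) were among the 20 highest of their array. Hba-a1 on type b (v00714_f_at) spanned 3.39-fold in intensity but only 1.45-fold as a percent of each array's top, from 67.4% in homozygous mutant 6 to 97.5% in 9b. The adult alpha probe set C79775_rc_f_at of type a spanned 3.31-fold in intensity and 1.37-fold as a percent of the top, from 74.7% to 102%. Their levels thus followed the top of the array closely. They ranked 8 to 63 and 3 to 38 on their arrays, near the rank that sets the top. Their narrow range as a percent of the top therefore follows in part from their brightness. Hba-x spanned 1.47-fold in intensity and 2.36-fold as a percent of the top, from 46.2% on 8a to 109% in wild type 1. Hbb-b2 lay lower on the scale, at 3.24% to 32.1% of the top, and spanned 11.3-fold in intensity and 9.90-fold as a percent of the top.

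Scaling to the spike-ins or to the top of each array, alternatives chosen after the data were seen, divides each array by a constant. By construction it moves the homozygous mutant minus wild type log2 fold change of every bright globin probe set of an array type equally. Scaling to the top moved type a by -0.58 and type b by -0.14, and scaling to the spike-ins by -0.68 and -0.32. Differences between these probe sets of an array type cannot change under such scaling. No globin was called. The medians of all tested probe sets of type a and type b became -0.51 and -0.11 when scaled to the top, and -0.57 and -0.23 when scaled to the spike-ins. Whether the brightest probe sets were near the limit of what the arrays could read was not tested.

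**Figure D4:**
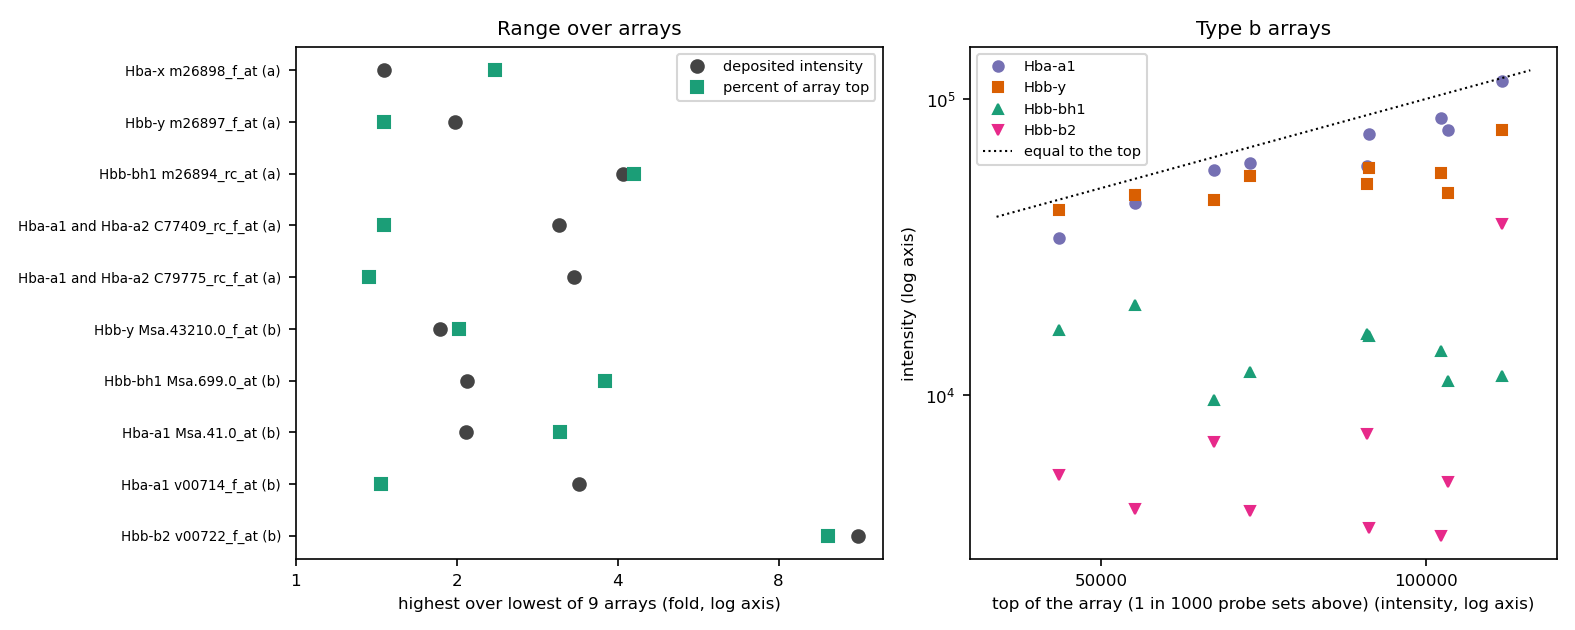
Left, highest over lowest of 9 arrays (fold, log axis) for each globin probe set in deposited intensity (circles) and as a percent of the array's 99.9th percentile (squares). Right, intensity of 4 type b globin probe sets against that percentile on the same array, both on log axes, with a dotted line where they are equal. Hba-a1, bright enough to lie near the percentile, stays at 67.4% to 97.5% of the top, and Hbb-b2 and Hbb-bh1 lie lower.

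The spread between replicates was taken as a measure of how much blood signal differed from array to array. The SD of log2 intensity within genotypes, pooled over the 3 genotypes, was 0.94 for Hbb-b2, more than that of 98.6% of the probe sets tested on type b. It was 0.78 for Hbb-bh1 on type a, more than 98.0% of type a probe sets, and 0.59 for Hba-a1 (v00714_f_at), more than 90.2% of type b probe sets. For the adult alpha probe sets C79775_rc_f_at and C77409_rc_f_at it was 0.48 each. Hba-x (0.23), Hbb-y (0.25 for type a, 0.29 for type b) and Hbb-bh1 on type b (0.38) lay near the medians of all tested probe sets, which were 0.29 for type a and 0.32 for type b.

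Without 8a and 9b the spread of the adult globins was smaller. The pooled SD was then 0.40 for Hbb-b2, more than 71.5% of type b probe sets, and 0.11 for C79775_rc_f_at, more than 7.94% of type a probe sets. C77409_rc_f_at had 0.20, and v00714_f_at still had 0.45. Hbb-bh1 on type a kept 0.86 and exceeded 99.2% of type a probe sets, so its spread did not lie in those arrays. Heterozygous arrays were the most alike for the bright type a probe sets, with coefficients of variation of 4.84% for Hba-x, 5.04% for Hbb-y and 5.68% for C79775_rc_f_at, against 17.5%, 12.4% and 10.7% in wild type.

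As a summary per array, the log2 deviations of the tested globin probe sets from their 9-array means were averaged by class. Adult globins deviated by -0.05, -0.12 and 1.29 in homozygous mutants 2, 6 and 8a, by -0.27 to -0.08 in heterozygotes and by -0.40 to -0.06 in wild type on type a. On type b they deviated by -0.43, -0.00494 and 1.24 in homozygous mutants 2, 6 and 9b, by -0.13 to 0.02 in heterozygotes and by -0.42 to 0.04 in wild type. Embryonic globins deviated by 0.39, -0.30 and 0.21 on type a and -0.03, 0.09 and 0.16 on type b in homozygous mutants, within or close to the wild type ranges of -0.59 to 0.26 and -0.37 to 0.19. Wild type 7 was lowest of all arrays in embryonic signal on both types, at -0.59 and -0.37. On type a the adult signal (-0.40) and the top of the array (42001) were also the lowest in this replicate. On type b the adult signal was not low (0.04). Hbb-bh1 on both types and Hbb-y on type a were lowest in wild type 7. Hba-x was lower in homozygous mutant 6, and Hbb-y on type b was lower in homozygous mutant 2.

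Other genes of red cells were set beside the globins. Of 47 genes for heme synthesis, iron supply, red cell membrane, erythroid regulation and red cell enzymes, 31 were on the arrays, 24 were tested and 0 were called by limma between homozygous mutant and wild type embryos, with 3 at an unadjusted p under 0.05, as had 777 of the 6935 probe sets tested. The median log2 fold change of these genes was -0.22, with 20 of 24 below 0, beside a median of -0.02 over all tested probe sets. The median was -0.31 without 8a and 9b, with 22 of 24 below 0, and -0.26 after quantile normalization. Heterozygotes minus wild type gave a median of -0.01 with 12 of 24 below 0, also with 0 called by limma and 1 at an unadjusted p under 0.05, as had 118 of all tested probe sets.

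In the heme pathway, Alad, the second enzyme, read 3046, 1324 and 3707 in homozygous mutants 2, 6 and 9b, 2998, 3371 and 4924 in heterozygotes, and 5302, 4176 and 4907 in wild type. All homozygous mutants lay below all wild type arrays, and 15.4% of all tested probe sets were likewise free of overlap between these genotypes. The log2 fold change of Alad was -0.95 (unadjusted p = 0.019, adjusted p = 0.324, limma). Alas2, the erythroid first enzyme, was -0.46 (adjusted p = 0.680), and Urod, a later enzyme, -0.23 (adjusted p = 0.803). Slc4a1, the anion exchanger of the red cell membrane, read 2095, 1694 and 1755 in homozygous mutants, 3032, 2896 and 2779 in heterozygotes, and 2759, 3100 and 2191 in wild type, without overlap between homozygous mutant and either other genotype. Between homozygous mutant and heterozygous arrays, 22.6% of all tested probe sets were free of overlap. The log2 fold change of Slc4a1 over wild type was -0.53 (unadjusted p = 0.032, adjusted p = 0.388, limma), and Ank1, which anchors the membrane skeleton, had -0.21. Rhd, a blood group membrane protein, had -0.08.

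The erythroid regulators of highest level were Ldb1, a bridging cofactor, at -0.11, Klf1, an activator of adult beta globin, at -0.42 (adjusted p = 0.609, limma), and Zfpm1, a GATA1 cofactor, at 0.50. Gata2, a regulator of blood progenitors chosen here after its value was seen, was the remaining gene with an unadjusted p under 0.05, at -0.77 (adjusted p = 0.391). Among enzymes, the carbonic anhydrase Car2 had -0.64 (adjusted p = 0.521), the peroxiredoxin Prdx2 -0.10 and catalase (Cat) -0.00063. The iron genes Ftl1 and Fth1 for ferritin and Tfrc for the transferrin receptor had 0.14, -0.17 and 0.05. None of these passed the test.

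By their median, the other erythroid genes were not highest on the arrays where the adult globins were. Of single genes, Ppox (807.9) and Zfpm1 (1512) were highest on 8a, and Ftl1 (66915) on 9b. The median deviation of the erythroid genes was lowest in homozygous mutant 6 on both types, at -0.25 (type a) and -0.31 (type b). It was -0.04 and -0.06 on 8a and 9b, where adult globins were highest. On type a homozygous mutants lay at -0.25 to 0.02, heterozygotes at -0.06 to 0.11 and wild type at -0.07 to 0.25, with overlap. On type b homozygous mutants lay at -0.31 to -0.06, heterozygotes at -0.10 to 0.12 and wild type at 0.04 to 0.20.

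**Figure D5:**
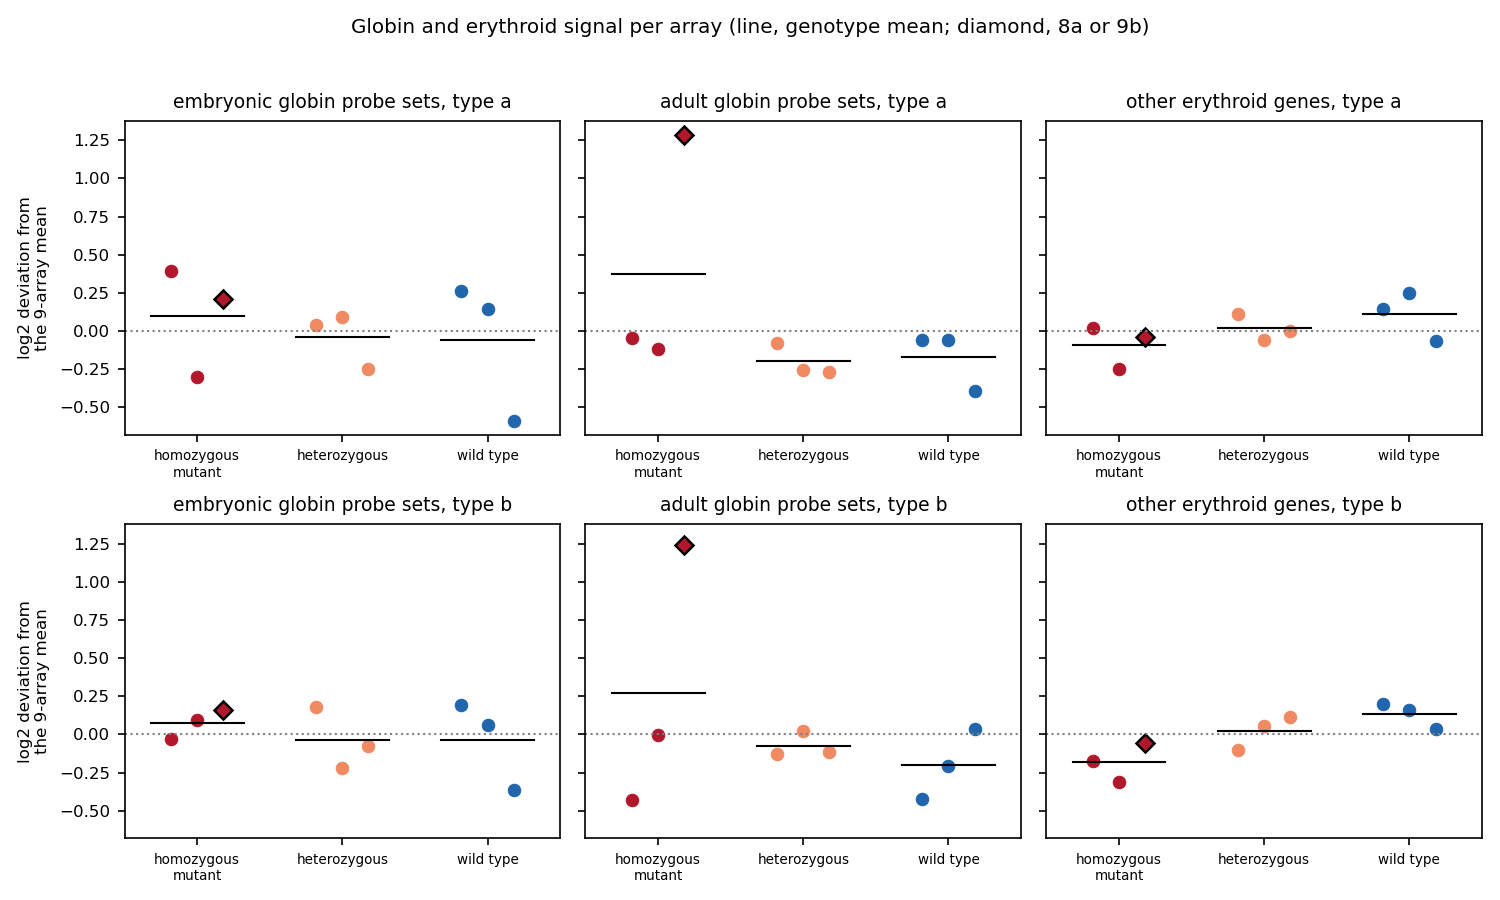
Log2 deviation from the 9-array mean for embryonic globin probe sets, adult globin probe sets (means) and other erythroid genes (medians) on each array, type a above and type b below, homozygous mutant, heterozygous and wild type from left to right, with genotype means as lines and diamonds for 8a and 9b. Adult globins reach 1.29 on 8a and 1.24 on 9b, where the erythroid genes lie at -0.04 and -0.06.

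Of the globins outside the members, myoglobin (Mb), the oxygen store of muscle, read 954, 1622 and 2826 in homozygous mutants 2, 6 and 9b, 1409, 1332 and 864 in heterozygotes, and 842, 1408 and 972 in wild type. Like Hbb-b2 it was highest on 9b and second highest in homozygous mutant 6, with a log2 fold change over wild type of 0.64 (adjusted p = 0.606, limma). Hbb-bh0, annotated as a pseudogene of the beta cluster, read 719, 1257 and 2540.1 in homozygous mutants, 2206, 1263 and 3621 in heterozygotes, and 2506, 892 and 2013 in wild type, with wide overlap and a log2 fold change of -0.32 (adjusted p = 0.890, limma). Heart muscle genes, of which 6 were tested and 0 called by limma (0 at an unadjusted p under 0.05), were summed over 5 type a probe sets to 36367 to 108046 in homozygous mutants, 30840.0 to 70544 in heterozygotes and 45779 to 70942 in wild type. Over 4 type b probe sets the sums were 88935 to 167715 in homozygous mutants, 94589 to 118844 in heterozygotes and 107230 to 149461 in wild type, and their part in the values of 8a and 9b was not tested. Of 10 endothelial genes 9 were on the arrays and 7 were tested, with 0 called by limma and 0 at an unadjusted p under 0.05 for homozygous mutant minus wild type. Their median log2 fold change was 0.12, with 6 of 7 above 0. The sums over 7 type a probe sets were 3083 to 4233 in homozygous mutants, 2599 to 3218 in heterozygotes and 3040.2 to 3508 in wild type. Over 4 type b probe sets they were 9889 to 17588 in homozygous mutants, 7652 to 9072 in heterozygotes and 8688 to 10891 in wild type. On type b the homozygous mutant sums thus lay above the heterozygous ones. Of all tested probe sets, 22.6% were free of overlap between these genotypes. The log2 fold changes of homozygous mutant over heterozygous were 0.77 for Eng, the brightest of the 4, 0.62 for Tie1, 0.24 for Kdr and -0.31 for Cd34. The part of endothelial cells in the globin values was not tested. Of the marker genes of myeloid cells and platelets 2 were tested, and 1 of trophoblast and decidua, with 0 called by limma and 0 at an unadjusted p under 0.05.

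The probe sets most like the globins were sought by Pearson's r over 9 arrays with the mean log2 intensity of the tested globins, as a description. On type a these were Rpl10 (0.93), Lamp1 (0.93), Atp6v0b (0.92), Mrpl30 (0.92) and Psmb6 (0.91). On type b they were Cox4i1 (0.97), Lhb (0.93), Rpl28 (0.93), H19 (0.92) and Gm15772 (0.92). All 10 had their highest value on 8a or 9b. The lowest correlations, -0.98 for Dnajc3, -0.97 for Tmem41b and -0.96 for Psmd6 on type a, and -0.96 for Pfn1, -0.94 for Gnb1 and -0.91 for Siah1a on type b, belonged to probe sets lowest on those arrays. Without 8a, a choice made after the data were seen, the values of r over the other 8 arrays of type a ran from 0.81 to 0.89 for the first 5 and from -0.96 to -0.93 for the 3 lowest. Without 9b on type b they ran from -0.25 for Lhb to 0.96 for Rpl28, and from -0.90 for Siah1a to -0.46 for Pfn1 and Gnb1.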

How the data were processed

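Total RNA of 18 samples was measured on 2 array types, 9 arrays each. Per the files' values, the authors deposited intensity per probe set, linear and background subtracted, since values below 0 occur. The software, scaling and background method are not stated in the sources used here, and the authors' scaling was kept. Control probe sets, 61 on each type, were left out, and heterozygous array 8 of type b lacked 499 values, none of them of a globin. Symbols came from the platform annotation. Values under the floor, 2 times the noise SD of the negative values, were set to it before log2 was taken. Each type was fitted on all 9 arrays with limma 3.58.1 in R 4.3.3 (eBayes with an intensity trend, two-sided), with Benjamini-Hochberg adjustment over all probe sets of both. An adjusted p under 0.05 was a call. The fit was tested on simulated data. The number of arrays limits the precision.

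Groups came from the sample titles. All 11 globin probe sets are named. Of each erythroid list the 3 tested genes of highest mean intensity are named, as none was called. Of the likeness search 5 highest and 3 lowest per type are named. The members and lists were chosen with earlier results of these data known, so no pattern among them is independent evidence. Balance, spread and likeness have no test. Alternatives were the floor, the filter, quantile and median scaling, only the compared genotypes, Afp as a block and leaving out arrays; scaling to spike-ins or to the top of the array was added after the data were seen. Promoter sequences are from RefSeq (GRCm38.p6).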

Additional observations from a re-analysis of the deposited data

How the results depend on the processing

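No globin probe set was called by limma in any of the 3 comparisons under any of 29 alternatives of the processing, 2 of which, the scalings to spike-ins and to the top, were added after the data were seen. The lowest adjusted p by limma was 0.132, for Hba-x in homozygous mutant minus heterozygous. The log2 fold change of Hba-x in that comparison ran from -0.86 with spike-in scaling to 0.12 over the alternatives. For Hbb-b2 the homozygous mutant minus wild type log2 fold change ran from 0.46 without 9b to 1.87 without homozygous mutant 2 (adjusted p = 0.597 and 0.211). The number of probe sets called overall was 48 for homozygous mutant minus wild type and 80 for homozygous mutant minus heterozygous. It was 7 and 40 with only the compared genotypes, 19 and 45 without the filter, 19 and 44 with spike-in scaling, and 9 and 17 with scaling to the top. Spike-in scaling moved the median of all tested probe sets to -0.41 for homozygous mutant minus wild type. The median pooled SD over the globin probe sets was 0.43. It was 0.25 after quantile normalization, 0.23 without 8a and 9b, and 0.28 to 0.48 leaving out 1 array at a time. All balance differences moved by less than their pooled SD under these settings, other than the 2 added ones, for which they were not computed. That SD includes 8a and 9b and is wide, so this is no mark of stability. Over all embryonic and adult probe sets, the homozygous mutant minus wild type difference changed sign leaving out 1 array. It ran from -0.74 to 0.02 for type a and from -0.65 to 0.09 for type b. Leaving out 1 array moved the Hba-x over adult alpha difference of homozygous mutant minus wild type between -0.86 and -0.19, and that of Hbb-y over Hbb-b2 between -1.52 and -0.55. The median of the 24 erythroid genes stayed negative, at -0.31 to -0.15 leaving out 1 array. No paired analysis was possible because the genotypes share no replicate numbers other than 8, held by heterozygous and homozygous mutant arrays of type a alone.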
